A study of Mus musculus with 12 samples.

Results

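Lysine and the branched-chain amino acids leucine, isoleucine and valine are broken down by mitochondrial enzymes. The 9 genes described here were Aass, Aadat and Gcdh, which encode enzymes of lysine degradation, Bcat2, Bckdha, Bckdhb, Dbt and Bckdk, which encode the first steps shared by the branched-chain amino acids and their control, and Ivd, which encodes the next step of the leucine arm. They were chosen by name from the 51826 entries of the gene table, with measured changes of these data in view, so that their values are given as a description. No p of a member is printed, and counts of members that passed a call are given without a conclusion. All 9 were in the table, and all 9 are protein-coding genes of the GRCm38 annotation.

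Lysine is degraded mainly through the saccharopine route, in which the bifunctional enzyme AASS joins lysine to 2-oxoglutarate and then splits the product. The resulting semialdehyde is oxidised by ALDH7A1, the aminoadipate so formed is transaminated by AADAT, and glutaryl-CoA further down is oxidised by GCDH. In the heart, branched-chain amino acids are transaminated by the mitochondrial enzyme BCAT2 and then committed to oxidation by the branched-chain 2-oxo acid dehydrogenase complex, whose activity is turned down when the kinase BCKDK phosphorylates it and restored by the phosphatase PPM1K.

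The study modelled the heart disease of myotonic dystrophy type 1, which is caused by an expanded CUG repeat RNA. Poly(A) RNA of atria and ventricles was sequenced from 3 CUG960 +dox mice (V119, V120 and V123) and 3 MHCrtTA +dox controls (V327, V333 and V334), giving 12 libraries in 4 groups. The CUG960 mice carried TREDT960I(H) and MHCrtTA(hemi), whereas controls carried MHCrtTA(hemi) alone. All were FvB females, taken at 10 weeks with doxycycline given from postnatal day 1. Controls therefore shared the doxycycline and the MHCrtTA transgene. In MHCrtTA the reverse tetracycline transactivator is driven by the promoter of the α-myosin heavy chain gene, which is active in cardiomyocytes, so that the repeat RNA was induced in these cells while the libraries held RNA of the whole chamber. Fewer cells of a type and less RNA per cell cannot be told apart in such bulk samples.

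Gene-level totals were between 116127966 (V123, atria) and 160676189 (V119, ventricles) counts per library. Levels are given as CPM, the counts of a gene scaled to a library size adjusted by the trimmed mean of M values (TMM). The fold changes are log2 values of CUG960 against control with their standard error (SE). A gene was called when its adjusted p was under 0.05 and its fold change at least 1.5. The chamber labels fitted the chamber markers. Myl2, the ventricular regulatory myosin light chain, was at 8484 to 10470 CPM in ventricles and at 8.81 to 33.5 CPM in atria, and Myl7, its atrial counterpart, at 2532 to 3318 CPM in atria. Among ventricle libraries, Myl7 was 7.98, 4.95 and 19.3 CPM in controls V327, V333 and V334, and 0.192, 0.305 and 55.8 CPM in CUG960 mice V119, V120 and V123, so that Myl7 was highest in the ventricle library of V123. The 6 atrial markers together summed to 319 CPM in that library and to between 84.6 and 238 CPM in the other 5. Myl4 and Sln followed Myl7, at 86.1 and 18.5 CPM in V123 against 4.36 and 0.213 CPM in V119 and 6.14 and 0.341 CPM in V120. Nppa was highest in V120 (225 CPM), while Bmp10 was lower in all 3 CUG960 ventricles (0.0344 to 0.276 CPM) than in controls (2.38 to 3.74 CPM), and both were called between genotypes in ventricles.

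Among the 8 members other than Aadat, which had few counts, Aass differed most between genotypes. It was expressed at 12.8, 11.5 and 13.1 CPM in control atria (V327, V333 and V334) and at 26.1, 23.9 and 28.7 CPM in CUG960 atria (V119, V120 and V123). In ventricles it was at 3.48, 3.92 and 2.84 CPM in controls and at 18.6, 22.4 and 16.4 CPM in CUG960 mice. Every CUG960 library was above every control library of its chamber, and all CUG960 ventricle libraries were also above all control atria. The log2 fold change was 1.07 with an SE of 0.09 in atria, and 2.48 with an SE of 0.16 in ventricles. From group means, this was a ratio of 2.11 in atria and 5.61 in ventricles. The ventricular effect exceeded the atrial effect by 1.41 (SE 0.19) on the log2 scale.

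The 4 group means of Aass were ordered as CUG960 atria (26.2 ± 2.42 CPM, mean ± SD, n = 3), CUG960 ventricles (19.1 ± 3.06), control atria (12.5 ± 0.831) and control ventricles (3.42 ± 0.544). No neighbours in this order overlapped. The ventricle to atria ratio was 0.274 in controls and 0.729 in CUG960 mice, so that the chambers were closer together in CUG960 mice. The ventricle library of V123, which held the most Myl7, had the lowest Aass level of the 3 CUG960 ventricles. Any part of atrial tissue in the ventricular Aass levels was not tested. Leaving out 1 mouse at a time, the log2 fold change of Aass ranged from 0.99 to 1.13 for atria and from 2.35 to 2.60 for ventricles.

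**Figure D1:**
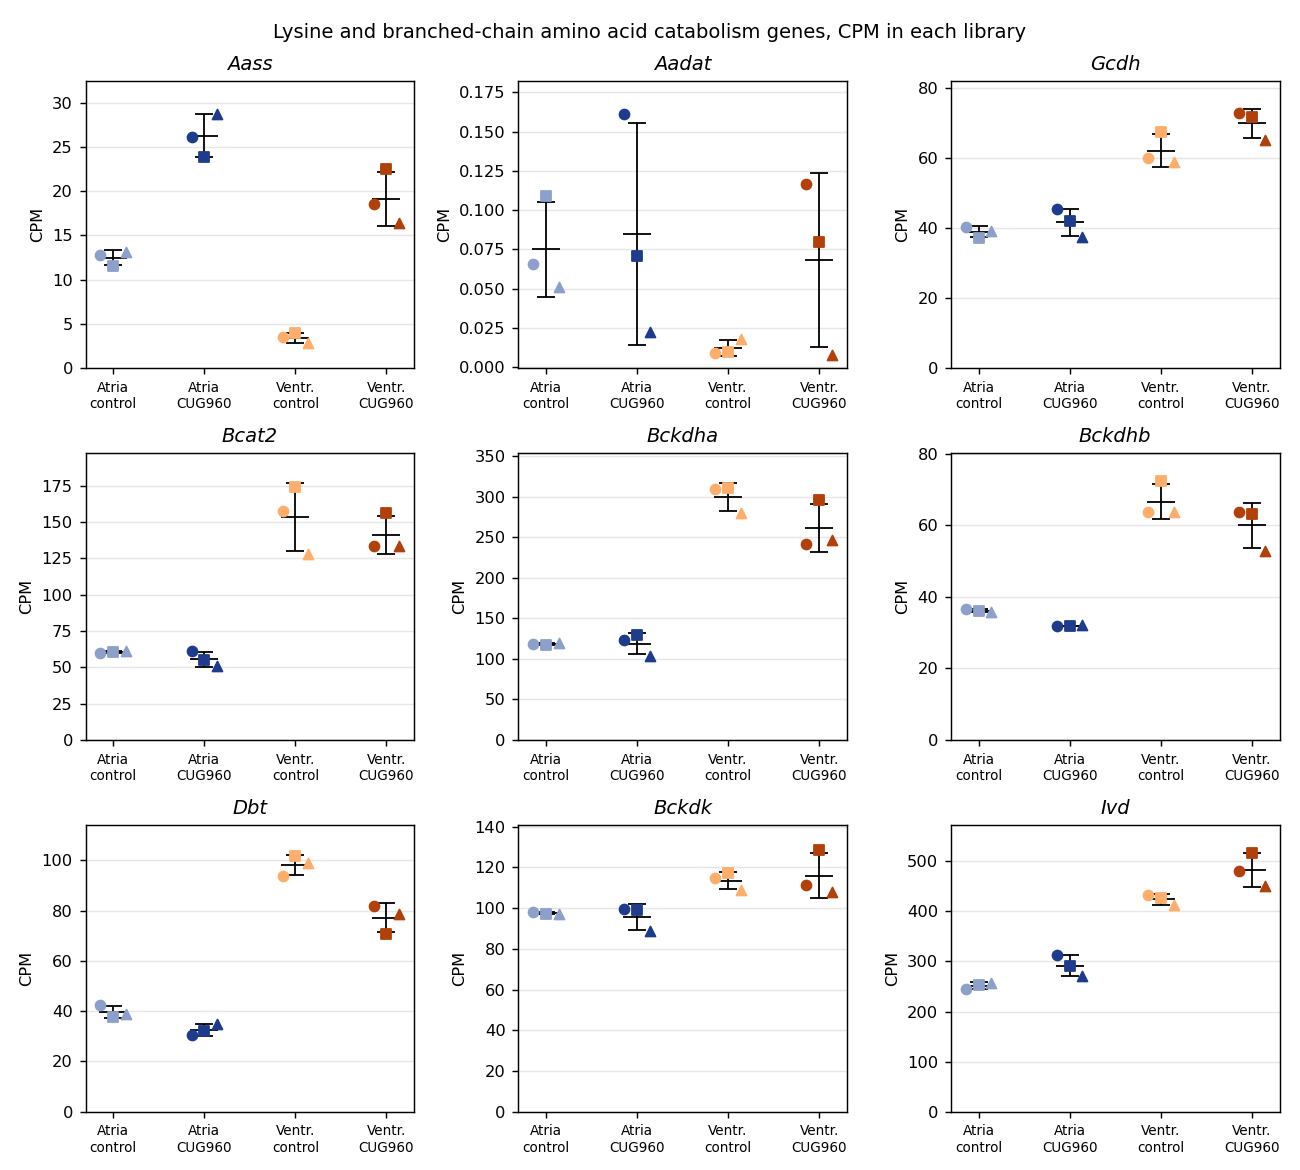
Level of each of the 9 genes in every library, as CPM on TMM library sizes (y axis, from 0), by group (x axis). Points are single libraries with a marker shape per mouse within its genotype, and the bars give the mean ± SD of 3 libraries. The CUG960 points of Aass lie above both control groups. On this TMM scaling the other 8 genes differ more by chamber than by genotype or, for Aadat, lie below 0.2 CPM. With total counts, the log2 fold change between control chambers was 0.23 for Gcdh and 0.31 for Ivd. Between genotypes in ventricles it was then 0.28 and 0.29.

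Because Aass had the largest fold change between genotypes among the 8 members other than the barely detected Aadat, the sequence just upstream of its start is shown beside that of Bckdha, the most abundant of the 9 per kb of exon, which differed little by genotype. RefSeq promoters on GRCm38.p6 were matched for 8 of the 9 genes, Dbt being the other. Each sequence is the 250 bases before the RefSeq start, read on the strand of the gene. Capitals mark AGGTCA, the half-site of several nuclear receptors, and CCAAT, the CCAAT box, on either strand (TGACCT and ATTGG on the reverse strand). The first lies at chr6:23132987-23133236 and the second at chr7:25658762-25659011, both on the minus strand. The GENCODE models of these genes begin at 23132986 and 25658981, so that most of the Bckdha window lies inside its gene model. The Aass window lies outside its own.
Aass: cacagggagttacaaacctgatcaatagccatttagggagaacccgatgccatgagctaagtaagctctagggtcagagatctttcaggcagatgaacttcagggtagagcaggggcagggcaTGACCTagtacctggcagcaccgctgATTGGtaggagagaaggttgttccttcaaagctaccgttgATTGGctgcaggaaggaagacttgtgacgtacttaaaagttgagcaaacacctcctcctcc
Bckdha: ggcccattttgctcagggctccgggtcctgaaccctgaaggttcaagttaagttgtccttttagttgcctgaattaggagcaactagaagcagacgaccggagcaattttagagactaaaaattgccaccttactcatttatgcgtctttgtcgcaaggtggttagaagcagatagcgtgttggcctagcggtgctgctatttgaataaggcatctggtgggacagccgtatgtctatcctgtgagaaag

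The Aass window held 1 match to AGGTCA, beginning 127 bases before the start, and 2 matches to CCAAT, beginning 101 and 61 bases before it. The Bckdha window, most of which lies inside the gene model, held neither motif. The set is not particular to Aass, since 1 of 2 Bckdhb windows likewise held 1 AGGTCA and 2 CCAAT, and the Ivd window held 4 CCAAT, while these genes differed from controls by less than the fold limit. Of 32851 promoters of the same length, 14.02% held AGGTCA and 33.85% held CCAAT. These matches are a description of the letters and not of a bound site.

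Gcdh, the glutaryl-CoA dehydrogenase, was at 40.3, 37.3 and 39.2 CPM in control atria and at 45.3, 42.1 and 37.4 CPM in CUG960 atria. Its ventricular level was 59.9, 67.5 and 58.8 CPM in controls and 72.9, 71.6 and 65.2 CPM in CUG960 mice. The groups overlapped in both chambers, with log2 fold changes of 0.09 (SE 0.08) in atria and 0.17 (SE 0.08) in ventricles. Aadat, the aminoadipate aminotransferase, was close to undetected in this heart RNA. It had 8 to 19 counts in control atria, 3 to 23 in CUG960 atria, 1 or 2 in control ventricles and 1 to 17 in CUG960 ventricles, which was at most 0.161 CPM, and its differences were not detectable at this depth. Per kb of exon, Aass amounted to 0.231 of Gcdh in control atria, 0.460 in CUG960 atria, 0.0396 in control ventricles and 0.197 in CUG960 ventricles.

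Bcat2, the mitochondrial branched-chain aminotransferase, was at 59.6, 60.3 and 61.2 CPM in control atria and at 60.9, 55.1 and 50.6 CPM in CUG960 atria. Ventricles held 158, 174 and 128 CPM in controls and 134, 156 and 133 CPM in CUG960 mice. The groups overlapped in both chambers, and the log2 fold change was -0.13 in each (SE 0.08 in atria and 0.12 in ventricles).

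The dehydrogenase complex is built from the E1 subunits encoded by Bckdha and Bckdhb and the E2 core encoded by Dbt. Bckdha was at 118.8, 117 and 119.8 CPM in control atria and at 123.5, 129 and 104 CPM in CUG960 atria, with means of 118.6 and 118.8 CPM. In ventricles it was at 309, 310.4 and 279.9 CPM in controls and at 242, 295 and 246 CPM in CUG960 mice, with a log2 fold change of -0.20 (SE 0.09). The groups overlapped in each chamber. Bckdhb was at 36.6, 36.1 and 35.6 CPM in control atria and at 31.8, 31.8 and 31.97 CPM in CUG960 atria, where the groups did not overlap (log2 fold change -0.19, SE 0.05). In ventricles Bckdhb was at 63.5, 72.2 and 63.8 CPM in controls and at 63.7, 63.2 and 52.8 CPM in CUG960 mice, and the groups overlapped (-0.16, SE 0.09).

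Dbt was the member that was lower in CUG960 mice in both chambers without overlap. It was at 42.4, 37.8 and 38.8 CPM in control atria and at 30.6, 32.03 and 34.9 CPM in CUG960 atria. Its level in ventricles was 93.7, 102 and 99.0 CPM in controls and 81.8, 70.6 and 78.8 CPM in CUG960 mice. The log2 fold change was -0.29 (SE 0.07) in atria and -0.35 (SE 0.08) in ventricles, both smaller than the 1.5-fold limit.

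The kinase gene Bckdk differed little by genotype. It was at 98.0, 97.4 and 96.9 CPM in control atria and at 99.7, 99.2 and 88.6 CPM in CUG960 atria. Control ventricles held 115, 117 and 109 CPM and CUG960 ventricles 112, 129 and 108 CPM. The groups overlapped in both chambers, with log2 fold changes of -0.03 (SE 0.06) and 0.03 (SE 0.08). Per kb of exon, the ratio of Bckdk to Bckdha was 0.422 ± 0.00571 in control atria, 0.416 ± 0.0215 in CUG960 atria, 0.195 ± 0.00493 in control ventricles and 0.229 ± 0.00721 in CUG960 ventricles (mean ± SD, n = 3). In ventricles the 3 CUG960 ratios (0.237, 0.224 and 0.225) were above the 3 control ratios (0.191, 0.194 and 0.200). The ratios of Dbt to Bckdha and of Bckdhb to Bckdha overlapped between genotypes in ventricles. Of single genes tested, 31.2% did not overlap there, and nothing is read from this ratio of chosen genes. The ratio of Bckdk to Ppm1k, the phosphatase gene that opposes it, was 1.43 ± 0.108 and 1.34 ± 0.18 in control and CUG960 atria and 1.87 ± 0.144 and 1.52 ± 0.323 in control and CUG960 ventricles, on the same scale, and the groups overlapped in both chambers.

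Ivd, the isovaleryl-CoA dehydrogenase, was above all controls in both chambers. It was at 245, 252 and 258 CPM in control atria and at 312, 291 and 271 CPM in CUG960 atria. In ventricles it was at 432, 428 and 412 CPM in controls and at 481, 517 and 450.0 CPM in CUG960 mice. The log2 fold change was 0.21 (SE 0.07) in atria and 0.18 (SE 0.08) in ventricles, so that Ivd, like Dbt, differed by less than the fold limit in both chambers.

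In atria, 1 of the 9 members (Aass, higher) passed the call, while 5.49% of the 17650 genes tested were called (3.37% higher and 2.12% lower). In ventricles, 1 of 8 tested members (Aass, higher) passed, while 4.75% of 16909 genes were called (1.76% lower and the rest higher). Aadat was not tested in ventricles, having too few counts. The chamber by genotype interaction was called for 1 of 9 members (Aass) and for 1.38% of 18327 genes. Nothing is read from these counts, since the same contrasts were in view when the members were chosen. The median log2 fold change of the members was -0.05 in ventricles, where the median of all genes was -0.01. In atria, 2 members (Aass and Ivd) were above and 2 (Bckdhb and Dbt) below all controls, while 19.0% of all genes tested were above and 16.7% below (35.7% in all). In ventricles, 2 members (Aass and Ivd) were above and 1 (Dbt) below all controls, while 16.7% of all genes tested were above and 14.5% below (31.2% in all).

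Pathway genes outside the 9 were examined to ask how far the change reached. Of 42 such genes listed, 41 were in the table, Tmlhe being the other. In atria, 2 of 41 were called, and in ventricles 1 of 40. The median log2 fold change was 0.01 in atria and -0.09 in ventricles. By list, the call was passed in atria by 1 of 8 genes of branched-chain amino acid entry and regulation, 0 of 6 of the leucine arm below Ivd, 0 of 7 of the isoleucine and valine arm, 0 of 8 of the propionate and methylmalonyl arm, 1 of 9 of the other lysine genes and 0 of 3 of the electron transfer flavoprotein. In ventricles 1 of 8 tested lysine genes passed, and no gene of the other 5 lists. At an unadjusted p under 0.05, 11 of 41 pathway genes passed in atria and 15 of 40 in ventricles, beside 5337 of 17650 (30.2%) and 4342 of 16909 (25.7%) of all genes tested (edgeR). DESeq2 called 2 and 1 of the pathway genes.

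Slc7a5, a cell surface carrier of large neutral amino acids, fell in atria. It was at 31.4, 35.2 and 31.9 CPM in controls and at 14.9, 19.4 and 20.0 CPM in CUG960 mice, without overlap (log2 fold change -0.87, SE 0.11, edgeR adjusted p = 0.0026). In ventricles it was at 9.001, 7.02 and 8.23 CPM in controls and at 6.02, 7.64 and 7.88 CPM in CUG960 mice (-0.18, SE 0.14, edgeR adjusted p = 0.47). The interaction of Slc7a5 was 0.69 (SE 0.19, edgeR adjusted p = 0.12). When the mouse entered the fit as a block, this difference was called (0.69, adjusted p = 0.04).

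Pipox, the peroxisomal oxidase of the pipecolate branch of lysine degradation, rose in both chambers from a low level. It was at 0.275, 0.218 and 0.300 CPM in control atria and at 0.469, 0.478 and 0.487 CPM in CUG960 atria (log2 fold change 0.85, SE 0.23, edgeR adjusted p = 0.043). In ventricles it was at 0.288, 0.416 and 0.419 CPM in controls and at 0.989, 0.755 and 0.678 CPM in CUG960 mice (1.10, SE 0.27, edgeR adjusted p = 0.034). The groups did not overlap, but each of the 6 fits that left out 1 mouse lost the call in each chamber. The edgeR adjusted p of these fits was up to 0.14 in atria and 0.12 in ventricles. Their log2 fold changes were 0.73 to 0.95 in atria and 0.93 to 1.21 in ventricles. In atria the call of Pipox was also lost with no filter on low counts.

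Aldh7a1, which acts just below Aass, passed the adjusted p in ventricles but not the fold limit. It was at 31.0, 30.8 and 31.3 CPM in controls and at 40.5, 43.3 and 39.8 CPM in CUG960 mice (log2 fold change 0.40, SE 0.07, edgeR adjusted p = 0.0091). In atria its fold change was 0.12 (SE 0.07, edgeR adjusted p = 0.26). Per kb of exon, Aass amounted to 0.149 of Aldh7a1 in control ventricles and 0.628 in CUG960 ventricles, beside 0.344 and 0.664 in atria.

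With no fold limit, 6 of 41 pathway genes passed in atria (Slc25a44, Slc7a5, Auh, Oxct1, Mut and Pipox) and 4 of 40 in ventricles (Slc25a44, Oxct1, Aldh7a1 and Pipox), beside 14.6% and 9.94% of all genes. Slc25a44, the mitochondrial importer of branched-chain amino acids, was among them in both chambers, with log2 fold changes of 0.24 (SE 0.06) in atria and 0.34 (SE 0.08) in ventricles at an adjusted p of 0.027 in each. Oxct1, which activates ketone bodies, passed in both as well, at -0.27 (SE 0.07, edgeR adjusted p = 0.036) and -0.34 (SE 0.08, edgeR adjusted p = 0.032). Over the 12 libraries Oxct1 was the most abundant gene of the leucine list, with a mean of 209.1 CPM per kb. In atria Acat1 was higher, at 110.8 against 109.9 CPM per kb in controls and 119.4 against 91.8 in CUG960 mice. Ppm1k was not called, at 0.07 (SE 0.08) and 0.35 (SE 0.10). The transcription factor gene Klf15, a known activator of branched-chain amino acid catabolism, was not called either, at 0.05 (SE 0.18) and -0.11 (SE 0.08).

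**Figure D2:**
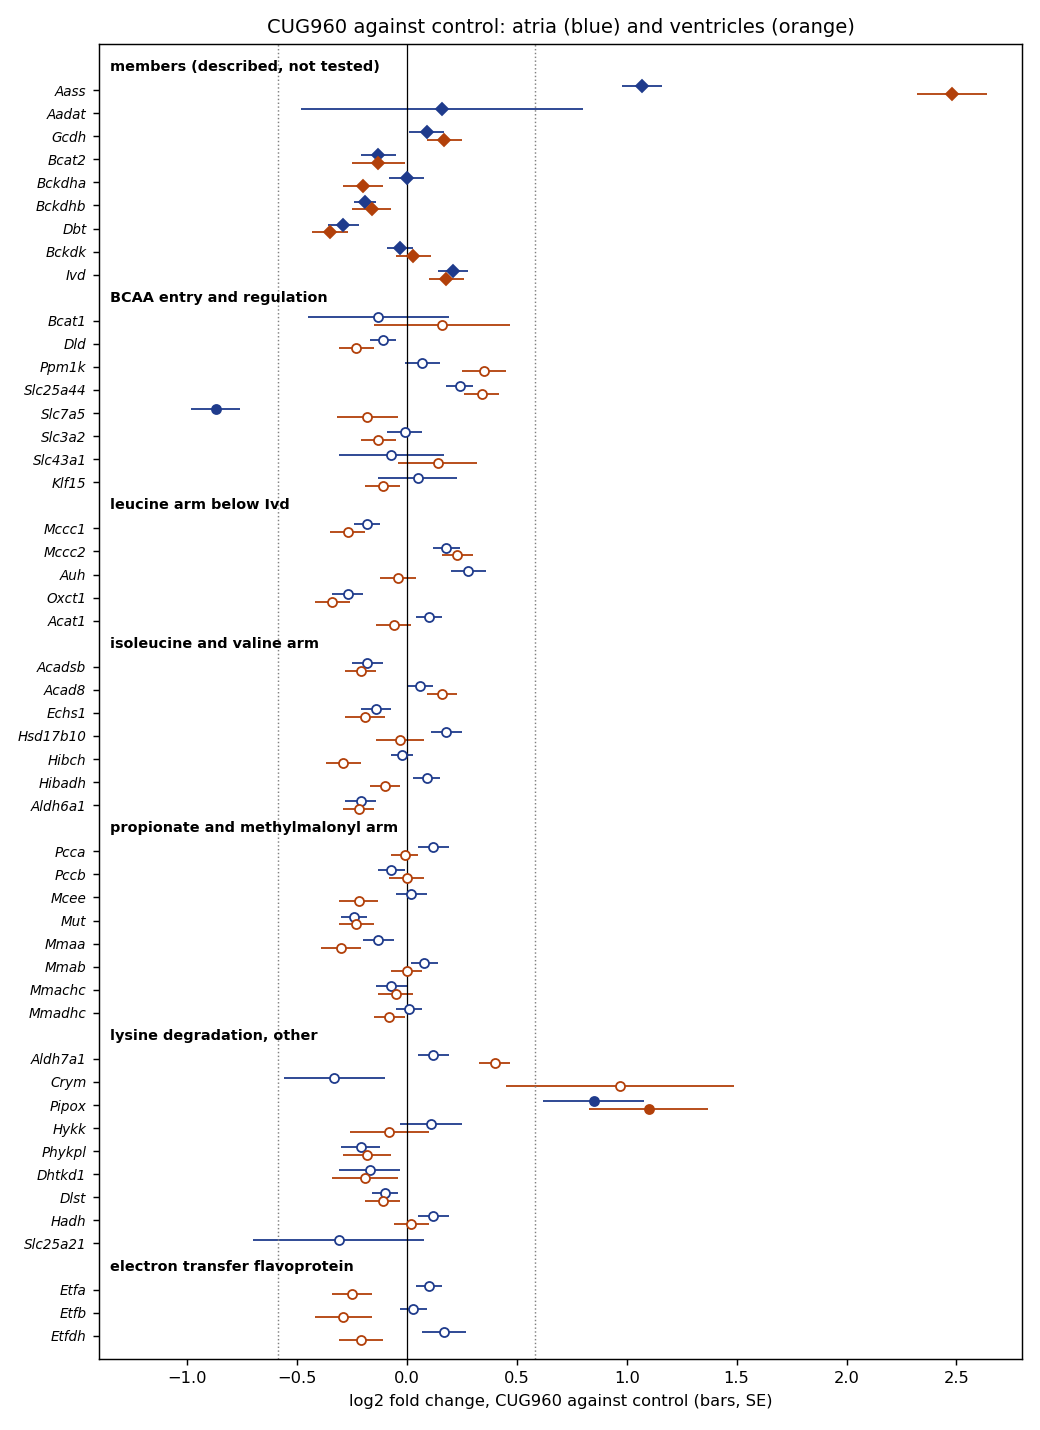
Log2 fold change of CUG960 against control (x axis, bars give the SE) of the 9 members (diamonds) and pathway genes (circles) in atria (blue) and ventricles (orange), grouped by list, with dotted lines at the 1.5-fold limit. Filled circles are pathway genes that were called. Aass lies at 1.07 and 2.48, and of the other genes only Slc7a5 in atria, Crym in ventricles and Pipox in both chambers lie outside the dotted lines.

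None of the 41 pathway genes outside the members had a called interaction of chamber and genotype (edgeR, smallest adjusted p 0.12), although 8 had an unadjusted p under 0.05 (Slc7a5, Auh, Hibch, Hibadh, Aldh7a1, Crym, Etfa and Etfdh), beside 2253 of all 18327 genes tested (12.3%). DESeq2 called 2 of them, Slc7a5 (0.68, adjusted p = 0.02) and Etfa (-0.36, adjusted p = 0.043).

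**Figure D3:**
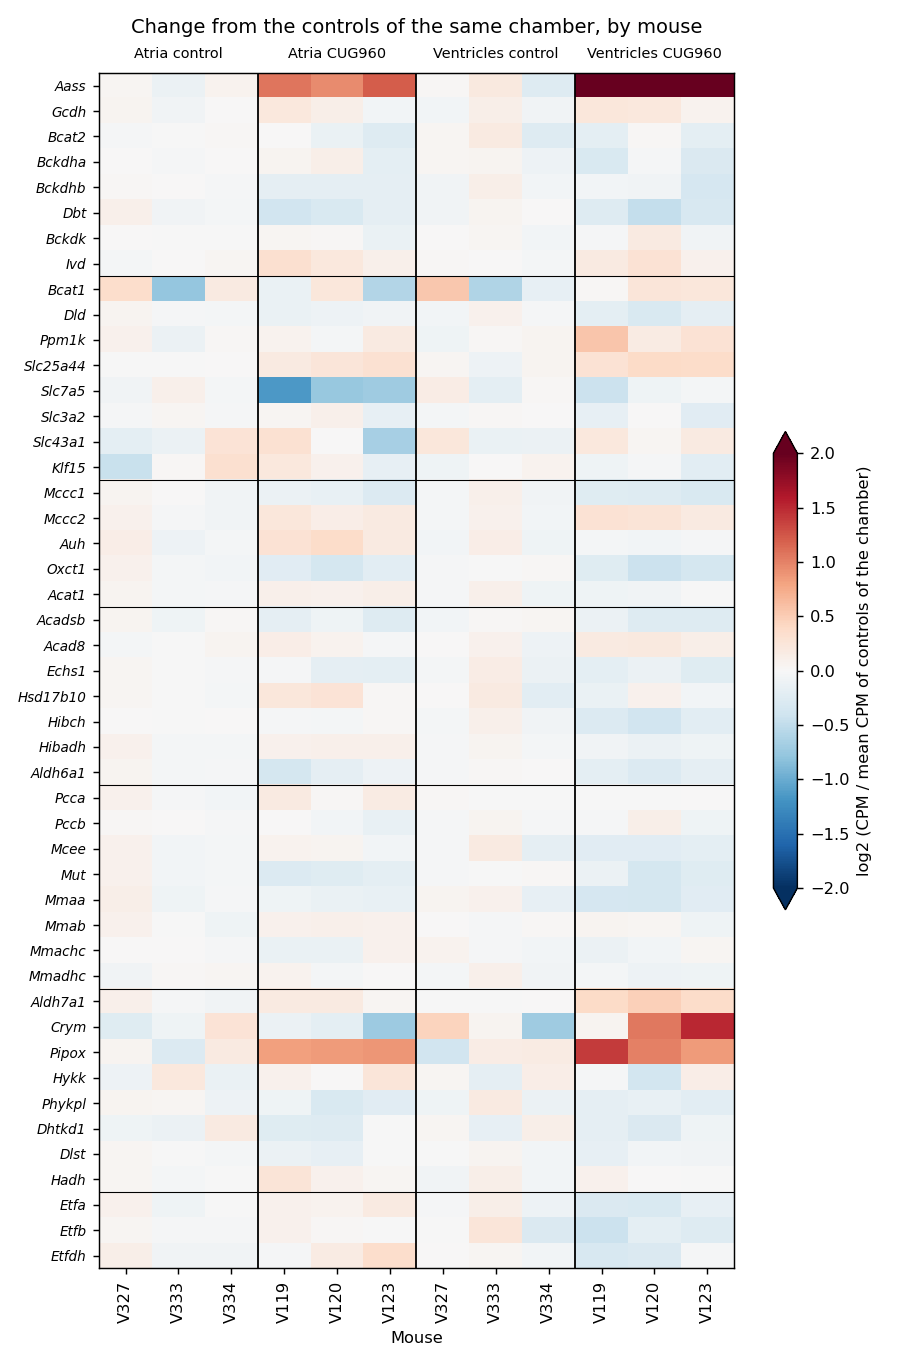
Change of each gene in every library as the log2 ratio of its CPM to the mean CPM of the controls of the same chamber (color), for 8 members and pathway genes (rows) and 12 libraries by mouse (columns), with Aadat and Slc25a21 left out for low counts. Aass is red in all 6 CUG960 libraries, Pipox likewise at a lower level, Slc7a5 is blue in CUG960 atria, and Crym varies between libraries of a group.

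The chambers were then compared in the controls, without the repeat RNA, to see how the pathway differs in RNA of the whole chamber. Cell type markers also differed between these chambers, as given below. Of 8 tested members, 6 were called higher in ventricles and Aass lower. Among all genes tested, 34.9% of 17451 were called (16.6% higher and 18.3% lower). Nothing is read from these counts either, since the members were chosen with measured changes of these data in view. The log2 fold change of ventricles against atria was 1.36 for Bcat2, 1.35 for Bckdha, 1.32 for Dbt, 0.89 for Bckdhb, 0.76 for Ivd and 0.68 for Gcdh, with SEs of 0.06 to 0.11. Aass was at -1.86 (SE 0.13), the opposite direction. Bckdk was at 0.23 (SE 0.06), and turned to -0.22 when total counts replaced TMM scaling. Aass was at 3.27 CPM per kb in control atria and 0.895 CPM per kb in control ventricles, while Bckdha, the highest of the 9 in both, was at 62.5 and 157.9 CPM per kb.

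Scaling matters for this comparison. Mitochondrially encoded transcripts took 19.6% to 20.5% of the counts in control ventricles and 11.8% to 12.2% in control atria, and scaling by total counts moved the median log2 fold change of all genes from -0.03 to -0.49. Under total counts, 1452 genes were higher and 6918 lower in ventricles, where TMM gave 2904 and 3194. Under total counts, 4 members passed the call, of which 3 were higher, and nothing is read from this count of chosen genes. Each tested member except Bckdk had the same direction as with TMM. Bcat2, Bckdha and Dbt were then at 0.90, 0.89 and 0.86. Bckdhb, Ivd and Gcdh were at 0.43, 0.31 and 0.23, short of the fold limit. The mitochondrially encoded share also differed by genotype in ventricles, being 18.4%, 15.3% and 17.3% in CUG960 mice, below all 3 controls. With total counts the ventricular log2 fold change between genotypes was 2.59 for Aass, 0.29 for Ivd and -0.24 for Dbt.

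Among the pathway genes outside the 9, 28 of 41 were called between the chambers, 21 higher and 7 lower in ventricles, with a median of 0.63 where that of all genes was -0.03. With total counts these became 12 higher and 10 lower, and the direction of Mut, Phykpl and Dhtkd1, none of them called, turned. The leucine arm was higher for 5 of 6 genes, with Auh at 1.60 (SE 0.09) and Oxct1 at 1.70 (SE 0.07, edgeR adjusted p = 6.5e-07). The isoleucine and valine arm was higher for 5 of 7 (Echs1, Hsd17b10, Hibch, Hibadh and Aldh6a1), with the hydrolase gene Hibch at 1.51 (SE 0.07, adjusted p = 9.2e-07). The propionate and methylmalonyl arm was higher for 5 of 8 (Pcca, Mcee, Mmaa, Mmachc and Mmadhc), with Mcee at 1.12 (SE 0.10). With total counts, 3 genes of the leucine arm (Auh, Oxct1 and Acat1), 3 of the isoleucine and valine arm (Echs1, Hsd17b10 and Hibch) and 1 of the propionate arm (Mcee) were still called higher. All 3 genes of the electron transfer flavoprotein, which takes electrons from Ivd and Gcdh, were higher, with Etfdh at 1.58, Etfa at 1.54 and Etfb at 1.25.

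Of 8 genes of branched-chain amino acid entry and regulation, 3 were called lower in ventricles and 1 higher, and with total counts 6 were lower and 1 higher. Slc7a5 (-2.01, SE 0.10), its partner subunit gene Slc3a2 (-0.91, SE 0.06) and the carrier gene Slc43a1 (-0.91, SE 0.19) were lower in ventricles, with edgeR adjusted p of 1.8e-06, 5.2e-06 and 0.0033, while Dld, the E3 subunit shared by the 2-oxo acid dehydrogenases, was higher (1.05, SE 0.07). Lysine genes were split. Dlst (1.10) and Hadh (0.76), which serve other pathways too, were higher in ventricles, and Aldh7a1 (-0.66), Hykk (-0.69), Slc25a21 (-2.30) and Crym (-3.81) were lower, as Aass was. Crym, the ketimine reductase gene, was between 0.879 and 1.27 CPM in control atria and at most 0.0989 CPM in control ventricles. Hykk was no longer called without V333, and Hadh was not called with total counts.

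**Figure D4:**
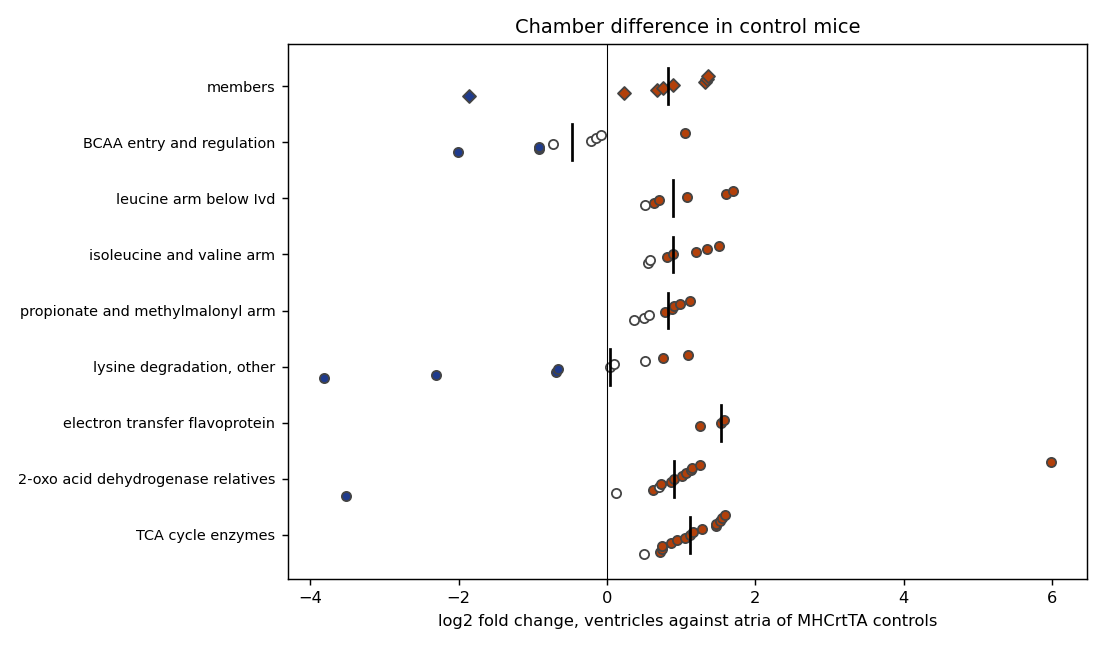
Log2 fold change of ventricles against atria in the 3 control mice (x axis) for the members, the pathway lists and the comparator lists (rows). Diamonds are members, filled circles are called genes (orange higher, blue lower), open circles are genes not called, and the black line is the list median. The leucine, isoleucine and valine arms and the 7 tested members other than Aass (-1.86) lie to the right of 0, although Bckdk (0.23) turns to -0.22 with total counts, and in the list of branched-chain amino acid entry and regulation the 3 called carrier genes lie to the left and Dld to the right.

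Enzymes related in structure or place were set beside the members. Of 15 enzymes of the tricarboxylic acid cycle, 0 were called between genotypes in atria and 0 in ventricles (edgeR, with 3 and 2 at an unadjusted p under 0.05, where all genes gave 30.2% and 25.7%, and 0 by DESeq2 in each). In control ventricles 14 were higher than in atria, among them Cs (1.05, SE 0.06) and Idh2 (1.52, SE 0.08), and 9 with total counts. Of 13 relatives of the 2-oxo acid dehydrogenases, 1 was called in atria and 3 in ventricles. Ogdhl, a relative of the 2-oxoglutarate dehydrogenase, was at 4.10, 2.42 and 2.75 CPM in control atria and at 12.02, 16.8 and 19.0 CPM in CUG960 atria (log2 fold change 2.36, SE 0.23, edgeR adjusted p = 7.3e-04). In ventricles Ogdhl was at 192, 195 and 196 CPM in controls and at 249, 362 and 301 CPM in CUG960 mice (0.64, SE 0.12, edgeR adjusted p = 0.012), and fell short of the fold limit without V120 (0.50).

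The pyruvate dehydrogenase kinases are the closest relatives of Bckdk. Pdk3 rose in ventricles, from 1.58, 1.63 and 1.995 CPM in controls to 3.58, 3.47 and 3.63 CPM in CUG960 mice (log2 fold change 1.03, SE 0.15, edgeR adjusted p = 0.0031). Pdk4 was lower in CUG960 ventricles, at 86.7, 193 and 100.3 CPM against 995, 238 and 389 CPM in controls (-2.10, SE 0.49, edgeR adjusted p = 0.027). The Pdk4 call was lost without V327 (-1.31, adjusted p = 0.054), without V119 (-1.89, 0.088) and without V123 (-1.96, 0.078). Between control chambers, 10 of the 13 relatives were higher in ventricles (Pdha1, Pdhb, Dlat, Pdhx, Pdk1, Pdk2, Pdp2, Pdpr, Ogdh and Ogdhl, the last at 5.99) and Pdk3 was lower (-3.52). With total counts 5 of the 10 were still called higher (Pdhb, Pdhx, Pdk1, Ogdh and Ogdhl). Pdpr (0.62) was no longer called without V327, without V334 or with the mouse as a block, which pairs the chambers.

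For each member, the 2 genes with the most similar pattern over the 12 libraries were found by Pearson's r of log2 CPM among 13104 genes. These libraries share mice, chambers and genotypes, and r is a description over them. Aass was most like Syn2 (r = 0.979), a synapsin gene, and Laptm4b (r = 0.977). Syn2 was at 21.3 ± 1.52 CPM in control atria, 51.8 ± 2.92 in CUG960 atria, 4.15 ± 0.940 in control ventricles and 34.5 ± 9.54 in CUG960 ventricles (mean ± SD, n = 3), the same order as Aass. Among the other members, Dbt was most like Aldh6a1 (0.997) and Hspa9 (0.996). Gcdh was most like Acad8 (0.990) and Mrpl13 (0.989), and Bcat2 like Ndufv1 (0.997) and Glrx5 (0.996). Bckdha was most like Gpx4 (0.996) and Mrpl9 (0.995), Bckdhb like Tsfm (0.991) and Gpt (0.991), and Ivd like Poldip2 (0.990) and Dcaf11 (0.990). Bckdk was most like Aes (0.980) and the pseudogene Rps2-ps10 (0.986), whose reads may come from a near-identical copy. Aadat, on its few counts, gave 0.902 for Per1 and 0.881 for Cep57l1.

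Markers of other cell types were measured beside these genes. The 6 hepatocyte markers, a cell type rich in lysine degradation, summed to between 0.302 and 1.83 CPM in any library, their most abundant gene was Ttr, and Alb was at most 0.0172 CPM. The 6 adipocyte markers summed to 583 ± 72.5 CPM in control ventricles and 383 ± 42.0 CPM in CUG960 ventricles (mean ± SD, n = 3), of which Fabp4, which other cells also express, made up 576 ± 73.2 and 381 ± 41.2 CPM. The other 5 summed to 6.78 ± 0.864 and 2.09 ± 1.35 CPM, and Plin1, Fabp4 and Cfd were called lower there. The 6 endothelial markers summed to 832 ± 91.5 CPM in control atria and 646 ± 56.9 CPM in CUG960 atria, and to 746 ± 81.4 and 565 ± 15.7 CPM in ventricles. By group mean, Vwf was the most abundant in atria and Kdr in ventricles, although Cdh5 exceeded Kdr in the ventricles of V333 and V334. Pecam1, the most abundant over all libraries, was called lower in atria (-0.71, SE 0.10, edgeR adjusted p = 0.0043). In ventricles Pecam1 was at -0.53 (SE 0.07, edgeR adjusted p = 0.0018), short of the fold limit. None of the 6 was called higher in CUG960 mice. The 6 cardiomyocyte markers of both chambers summed to 39520 ± 916 and 42760 ± 1050 CPM in control and CUG960 atria, and to 51390 ± 2062 and 54150 ± 2014 CPM in ventricles, with Myh6 the most abundant. The largest share of each sum was Myh6 (log2 fold change 0.22 in atria and 0.25 in ventricles). Ryr2 was at -0.53 in atria and was called lower in ventricles (-0.67, SE 0.13, edgeR adjusted p = 0.015), and Tnnt2 was at -0.39 in ventricles. Pln was higher in CUG960 atria, at 915 ± 110.5 CPM against 637 ± 69.3 CPM in controls. There Pln passed the adjusted p but not the fold limit. Between control chambers, 6 of 6 macrophage markers (median log2 fold change -1.17) and 4 of 6 fibroblast markers (-0.83) were called lower in ventricles. Among all genes tested, 18.3% were called lower. Of the 6 cardiomyocyte markers of both chambers, 3 were called higher. The 6 fibroblast markers were at -0.47 to -0.18 in CUG960 atria and at -0.37 to 0.29 in CUG960 ventricles, none called. The part of these differences in the values of the 9 genes and the pathway genes was not tested.

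The 9 genes lie on several chromosomes of GRCm38. Aass lies at chr6:23072173-23132986 on the minus strand, Dbt at chr3:116513070-116549981 on the plus strand and Ivd at chr2:118861954-118882909 on the plus strand. Bckdha and Bcat2 share a chromosome with Bckdk, at chr7:25629946-25658981 (minus), chr7:45570153-45589711 (plus) and chr7:127904082-127910221 (plus). Gcdh and Aadat lie at chr8:84886393-84893921 (minus) and chr8:60505932-60545677 (plus), and Bckdhb at chr9:83925145-84124240 (plus). On the opposite strand, Bckdha overlaps B3gnt8 (a mean of 478 counts per library), Gcdh overlaps Syce2 (65.2), Bcat2 overlaps 0610005C13Rik (46.9) and Dbt overlaps Gm4596 (26.6). Bckdhb overlaps Gm29163 (0.0), Gm29164 (0.25) and Gm46124 (no count available) on the opposite strand, and Dbt overlaps Gm43651 (0.25) on its own strand. Whether the counting used strand is not given in the sources used here. Aass has no overlapping gene in this annotation.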

How the data were processed

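Poly(A) RNA of 12 libraries (3 per group) was sequenced. The authors deposited expected counts per gene made with RSEM 1.3.1, given as whole numbers with no decimals, on GRCm38, and their processing notes also name DESeq2. They were used as deposited. The 9 genes and all gene lists were chosen with earlier results of these data known. Differences were fitted with edgeR 4.0.16 in R 4.3.3 (filterByExpr, TMM, quasi-likelihood test, Benjamini-Hochberg over all genes tested) within each chamber, within controls between chambers, and over 12 libraries for the interaction, which was called at an adjusted p under 0.05 with no fold limit. The members were part of these fits, but their p-values are not given and nothing is read from counts of members called. The alternatives were DESeq2 1.42.0, RLE size factors, total counts, no filter on low counts, other fold limits, a single fit over 12 libraries, a block for the mouse, and fits without 1 mouse at a time. Exon lengths came from the union of exons in GENCODE. Genes named were the members, pathway and comparator genes called in any comparison, the most abundant gene of each list, and the 2 nearest patterns per member. Further genes, among them Ppm1k, Klf15, Slc25a44 and other pathway and marker genes that were not called, were named after their values were seen. Some listed genes entered the counts but are not reported here by name. Scripts were tested on simulated data. Both chambers came from the same mice, and same-mouse deviations from the group means correlated between chambers at 0.303, 0.152 and 0.140 in controls and 0.052, 0.215 and 0.230 in CUG960 mice (13112 genes). Each mouse is 1 replicate.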

Additional observations from a re-analysis of the deposited data

Results flagged for a closer look

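The CUG960 effect on Pdk3 differed between the chambers by 0.86 (SE 0.13) on the log2 scale, ventricles minus atria, at an edgeR adjusted p of 0.0075. It was picked out because the interaction of chamber and genotype was called. The call was lost without V327 or without V333 (adjusted p of up to 0.054). The effect on Ogdhl differed by -1.72 (SE 0.27, edgeR adjusted p = 0.0096) for the same reason, being larger in atria, and the call was lost without V333 (-1.56, adjusted p = 0.062) and without V123 (-1.57, 0.051).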

How the results depend on the processing

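The direction of the Aass, Dbt and Ivd fold changes between genotypes was the same under every alternative run. With no fold limit, 2573 genes were called in atria, 1680 in ventricles and 9726 between control chambers, and a limit of 1.5 on the log2 scale left 216, 199 and 2233. Of pathway genes outside the members, no fold limit called 6 in atria and 4 in ventricles, and the limit of 1.5 left 0, 0 and 8 of 28 between chambers. In atria 1 remained with no filter on low counts. Leaving out a mouse gave 1 in atria and 0 in ventricles in every case. For the interaction, DESeq2 called 652 genes where edgeR called 253, and leaving out a mouse gave 74 to 131. Of pathway genes, DESeq2 called 2, and no filter 1. With the mouse as a block, as both chambers were paired within a mouse, 1 pathway gene (Slc7a5) was called for the interaction in place of 0, and 6113 genes were called between control chambers. Under total counts, ventricles gave 779 genes higher and 187 lower in CUG960 mice (507 and 297 with TMM), and the interaction 154 and 81 (127 and 126). With 3 mice per group, p-values measure the spread of few animals. Depth limits Aadat, Slc25a21, Crym and Pipox.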
